A study of Homo sapiens with 24 samples.

Results

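The hedgehog pathway genes examined here were PTCH1, SMO, GLI1, GLI2, GLI3, SUFU and HHIP, which were matched by symbol to the Ensembl identifiers of the count tables and made up 7 of the 62703 genes listed there. Their mRNA was measured in T/C-28a2 cells, an immortalised human chondrocyte line, in 24 libraries that fell into 6 groups of 4. In the WT genotype there were cells in isotonic control media (WT Ctr), cells kept in media with 100 mM sorbitol for 7 days (WT Sor), and cells that had received a WNK2 expression plasmid and then either control media (WNK2 trans Ctr) or sorbitol (WNK2 trans Sor). Cells of a clonal WNK2 knockout line, made with CRISPR/Cas9 by deletion of exon 2, were kept in the same control media (WNK2- Ctr) or sorbitol (WNK2- Sor). WNK2 is a kinase of the With-No-Lysine family, whose members respond to changes in osmolarity. By their labels the groups varied osmolarity and WNK2, but the WNK2 counts given below did not follow the labels as a dose. The study's methods describe no transfection with an empty plasmid. Effects of the WNK2 plasmid and of transfection itself therefore cannot be told apart. All 6 groups came from 1 cell line, the knockout was 1 clone, and the labels did not say that the 4 libraries of a group were separate cultures, although the study's methods call the replicates biological, so p-values measured the spread between these libraries.

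In hedgehog signalling the receptor PTCH1 holds the membrane protein SMO inactive until a ligand binds PTCH1, and active SMO then releases the GLI transcription factors from SUFU, the cytoplasmic protein that restrains them. GLI2 acts mostly as an activator and GLI3 mostly as a repressor, while GLI1 and PTCH1 are themselves transcribed in response to the pathway and are its usual readouts. HHIP binds and sequesters the ligands. In the growth plate Indian hedgehog from maturing chondrocytes governs their proliferation and hypertrophy, and the signal passes through the primary cilium.

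PTCH1 is the member whose promoter is best known as a GLI target, so its sequence is shown with the GLI consensus. Among 5 RefSeq promoters of PTCH1, each running from 250 bases before a transcription start to 50 bases after it, 1 held the 9 letters GACCACCCA exactly, read on the opposite strand as TGGGTGGTC and starting 172 bases before the transcription start. It lies at chr9:95509217-95509516 of GRCh38.p14 on the minus strand and reads as follows, 5′ to 3′, with the consensus in capitals.
PTCH1 promoter: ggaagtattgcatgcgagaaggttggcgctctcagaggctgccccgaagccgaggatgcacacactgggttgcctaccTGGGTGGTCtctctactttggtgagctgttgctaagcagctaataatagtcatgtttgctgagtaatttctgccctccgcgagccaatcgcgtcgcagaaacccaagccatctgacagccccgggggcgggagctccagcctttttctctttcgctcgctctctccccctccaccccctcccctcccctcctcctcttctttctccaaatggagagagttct
The exact letters on either strand occurred in 83 of 35116 RefSeq promoters of the same length (0.236%), and in none of the listed promoters of SMO, GLI2, SUFU and HHIP. A match of letters is a description of this window and no evidence of binding. Of the members, GLI1 and GLI3 are named only.

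The deposited values were read counts per gene, and library totals ran from 14153002 to 25664619 counts, with 18578564 or more in the WNK2- libraries and 23239491 or fewer in the others. Levels are given as CPM, the usual depth-scaled count, with library sizes scaled by TMM. WNK2 itself was at 168.6, 78.5, 116 and 186 CPM in the libraries labelled WT Ctr and at 206.5, 122, 145 and 187 CPM in those labelled WNK2 trans Sor. It was at 15.4 to 17.4 CPM in WT Sor, 9.98 to 16.1 CPM in WNK2 trans Ctr, 21.1 to 22.7 CPM in WNK2- Ctr and 16.9 to 22.8 CPM in WNK2- Sor. Less WNK2 transcript was thus present after the transfection label than without it in control media, against the label, and groups are called below by their labels only. A count over the whole gene does not check the deletion of 1 exon. Of 16 chondrocyte markers, 8 or 9 had a mean of at least 1 CPM in the WT-genotype groups and 6 and 4 in WNK2- Ctr and WNK2- Sor. The summed level of these markers was 104 to 162 CPM in the WT-genotype libraries and 29.1 to 34.6 CPM in the WNK2- libraries. The highest sum was in WNK2 trans Sor (115 to 162 CPM), where most tested markers fell with sorbitol, so the sum does not follow the markers as a set. SOX9, a defining marker, is listed at 0 in every library. So are 15.8% of the protein-coding genes, SDHA and ITCH among them, and this 0 does not show that SOX9 was absent. With sorbitol in cells labelled WNK2 trans 8 of the 11 tested markers fell, among them COL2A1 (-2.88 ± 0.24 SE, adjusted p = 3.65e-10) and ACAN (-2.36 ± 0.35 SE, adjusted p = 4.38e-06), and 3 rose, among them HAPLN1 (1.34 ± 0.12 SE, adjusted p = 2.28e-09). In the WNK2- line 5 of the 11 were lower in isotonic media and 7 under sorbitol, and 0 were higher. Summed markers of endothelial cells ranged from 24.4 to 106 CPM and were highest in WNK2 trans Sor (99.3 to 106 CPM), those of leukocytes from 5.41 to 24.2 CPM, of epithelium from 0.469 to 2.72 CPM and of muscle from 0.109 to 0.713 CPM. The part of these shifts in any result below was not tested. In bulk RNA, fewer cells of a type and less RNA per cell cannot be told apart.

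Of the 7 members, 6 had counts in all 24 libraries and passed the filter on low counts. HHIP is listed at 0 in every library, as are SDHA and ITCH, genes that nearly every cell uses, and no fold or test is given for it. Its 0 does not show that the transcript was absent. On the reference annotation, genes on the opposite strand share 99251 bases with HHIP, and these are at 0 as well. Per kilobase of exon, the order of mean levels in WT Ctr was SMO (9.77 CPM per kb), GLI2 (7.27), SUFU (7.12), GLI3 (3.99), PTCH1 (1.24) and GLI1 (0.955). SMO, GLI2 and SUFU were thus the abundant transcripts and the pathway's readouts PTCH1 and GLI1 the scarce ones. In WNK2 trans Sor and WNK2- Sor the mean level of SMO was 3.79 and 3.87 CPM per kb, below GLI2 and SUFU in both groups. GLI1 rested on few reads, with 8 to 89 counts in a library.

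PTCH1 (ENSG00000185920, chromosome 9, 95442980 to 95517057, minus strand, GRCh38) was at 21.5, 14.1, 19.3 and 27.3 CPM in WT Ctr and at 29.9, 29.3, 26.1 and 28.97 CPM in WT Sor. In the groups labelled as transfected it was at 37.7, 33.02, 27.7 and 36.0 CPM in WNK2 trans Ctr and at 16.4, 13.1, 16.9 and 16.6 CPM in WNK2 trans Sor. In the knockout line it was at 22.9, 23.5, 26.3 and 25.9 CPM in WNK2- Ctr and at 17.2, 18.7, 16.4 and 17.5 CPM in WNK2- Sor. PTCH1 was highest in WNK2 trans Ctr and lowest in both WNK2 trans Sor and WNK2- Sor, and each group's range overlapped that of the next in the order. The WT Ctr libraries were the most spread, and replicate 2 was below every other library of the WT genotype except replicate 2 of WNK2 trans Sor.

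SMO (ENSG00000128602, chromosome 7, 129188872 to 129213545, plus strand), the signal transducer held inactive by PTCH1, was at 45.3, 33.7, 40.3 and 49.2 CPM in WT Ctr and at 39.7, 44.4, 33.2 and 40.1 CPM in WT Sor. It was at 51.1, 57.4, 51.2 and 56.5 CPM in WNK2 trans Ctr and at 20.7, 14.3, 18.4 and 12.0 CPM in WNK2 trans Sor. In WNK2- Ctr it was at 28.6, 31.9, 29.7 and 31.2 CPM, and in WNK2- Sor at 15.8, 19.4, 14.5 and 17.1 CPM. The order fell into 4 levels that did not overlap: WNK2 trans Ctr, then both WT groups together, then WNK2- Ctr, then WNK2- Sor and WNK2 trans Sor together.

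GLI1 (ENSG00000111087, chromosome 12, 57460135 to 57472262, plus strand), the factor whose transcription follows pathway activity, was at 4.79, 4.26, 3.83 and 3.18 CPM in WT Ctr and at 4.39, 3.90, 3.48 and 4.22 CPM in WT Sor. It was at 4.88, 3.93, 5.20 and 5.57 CPM in WNK2 trans Ctr and at 1.90, 1.91, 0.978 and 0.800 CPM in WNK2 trans Sor. In the knockout line the libraries held 0.671, 1.19, 1.27 and 0.953 CPM in WNK2- Ctr and 0.930, 0.817, 0.421 and 1.22 CPM in WNK2- Sor. These values formed 2 levels: every library of WT Ctr, WT Sor and WNK2 trans Ctr lay above every library of WNK2 trans Sor and of both WNK2- groups, and within each level the groups overlapped. Exons of GLI1 share 8 bases with ARHGAP9 on the reference annotation, and the strand setting of the counting is not given in the sources used here.

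GLI2 (ENSG00000074047, chromosome 2, 120735623 to 120992653, plus strand), the main activator, was at 49.6, 35.0, 58.1 and 70.8 CPM in WT Ctr, a range that took in the mean of each other group. Its means were 62.0 ± 3.67 CPM in WT Sor, 67.3 ± 10.4 in WNK2 trans Ctr, 47.4 ± 4.32 in WNK2 trans Sor, 67.6 ± 3.93 in WNK2- Ctr and 53.7 ± 5.02 in WNK2- Sor (SD, n = 4 in each). No neighbours in the order of GLI2 levels were apart.

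GLI3 (ENSG00000106571, chromosome 7, 41960950 to 42237870, minus strand), mostly a repressor in the absence of ligand, was at 36.2, 39.7, 51.6 and 47.1 CPM in WT Ctr, at 55.3, 49.2, 47.3 and 49.9 CPM in WT Sor and at 31.3, 31.2, 29.6 and 28.9 CPM in WNK2- Sor. Its means in the other groups were 52.2 ± 6.14 CPM in WNK2 trans Ctr, 42.4 ± 3.64 in WNK2 trans Sor and 37.7 ± 1.70 in WNK2- Ctr (SD, n = 4 in each). Only WNK2- Sor stood apart, with all 4 libraries below every other library of the series.

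SUFU (ENSG00000107882, chromosome 10, 102503987 to 102633535, plus strand) had the narrowest spread of the 6 members relative to its level, with 34.4 to 54.8 CPM over the 24 libraries. Its group means ran from 41.3 ± 5.44 CPM in WNK2 trans Sor to 51.7 ± 2.43 CPM in WNK2- Ctr (SD, n = 4), and neighbouring groups overlapped throughout.

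**Figure D1:**
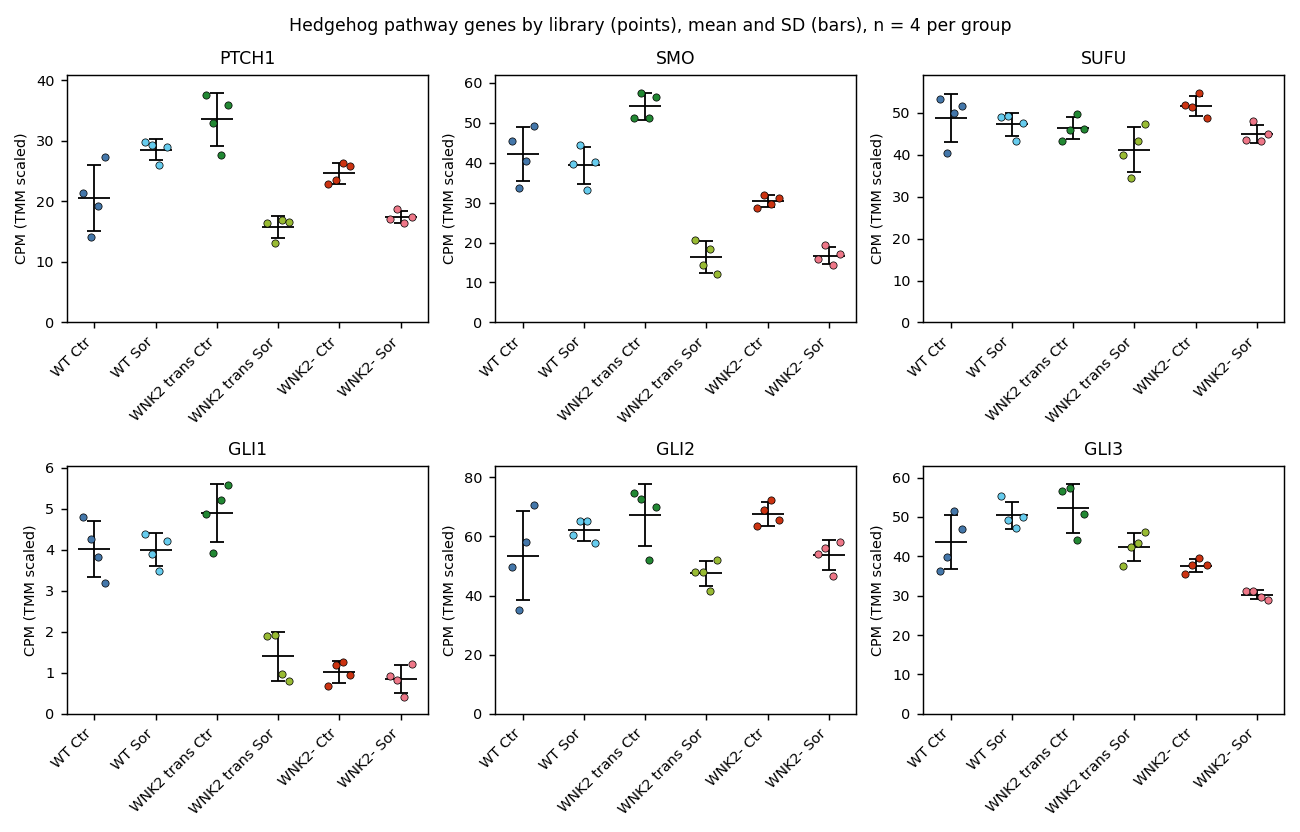
CPM of the 6 members with counts, 1 panel a gene, with the 6 groups on the horizontal axis; points are libraries, bars the mean and SD (n = 4). SMO and GLI1 are lowest in WNK2 trans Sor and in the WNK2- groups, while SUFU stays between 34.4 and 54.8 CPM in all libraries.

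Sorbitol in WT cells moved the receptor and none of the other members past the test. PTCH1 rose from 20.6 ± 5.46 to 28.6 ± 1.70 CPM (SD, n = 4 in each), a log2 difference of 0.48 ± 0.14 (SE, edgeR quasi-likelihood test, adjusted p = 0.0144). This was 1 of the 6 members tested, where 24.1% of all 16600 tested genes passed the test (11.4% higher and 12.7% lower). The log2 difference of SMO was -0.10 with a 95% interval from -0.38 to 0.18, and that of GLI1 was -0.01 with an interval from -0.52 to 0.51. The PTCH1 libraries of the groups overlapped, and without WT Ctr replicate 2 its difference was 0.33 (adjusted p = 0.0662). GLI3 passed without WT Ctr replicate 3 (0.31, adjusted p = 0.0355) and GLI2 without replicate 4 (0.38, adjusted p = 0.044).

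In isotonic media the WNK2- line had less GLI1 and less SMO than WT cells. GLI1 was 3.91-fold lower (log2 difference -1.97 ± 0.28 SE, adjusted p = 3.11e-06) and SMO 1.39-fold lower (-0.47 ± 0.14 SE, adjusted p = 0.00734), and for both genes no WNK2- Ctr library reached a WT Ctr library. These were 2 of 6 members, beside 42.1% of all tested genes (20.7% higher and 21.5% lower). PTCH1, the other transcriptional readout of the pathway, did not follow GLI1, with a log2 difference of 0.26 (95% interval -0.02 to 0.55, adjusted p = 0.131). GLI2 differed by 0.34 (adjusted p = 0.059), GLI3 by -0.21 (0.103) and SUFU by 0.08 (0.522). Without WT Ctr replicate 4, PTCH1 (0.43, adjusted p = 0.011) and GLI2 (0.51, adjusted p = 0.005) also passed, and without WT Ctr replicate 1 so did GLI3 (-0.29, adjusted p = 0.026). GLI2 stayed short of the test in only 3 of 6 alternative settings. It passed with DESeq2 (0.36, adjusted p = 0.0468), with other scaling (0.36, 0.0471) and with at least 10 counts in every library (0.37, 0.041). Without WNK2 trans Ctr replicate 3, which is in neither group, GLI2 also passed (0.34, adjusted p = 0.0409).

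Under sorbitol 4 of the 6 members were lower in the WNK2- line than in WT cells, and 46.3% of all tested genes passed the test (23.7% higher and 22.7% lower). GLI1 was 4.66-fold lower (log2 difference -2.22 ± 0.28 SE, adjusted p = 3.84e-07) and SMO 2.36-fold lower (-1.24 ± 0.14 SE, adjusted p = 6.93e-08). GLI3 was 1.67-fold lower (-0.74 ± 0.10 SE, adjusted p = 2.36e-06) and PTCH1 1.64-fold lower (-0.71 ± 0.14 SE, adjusted p = 0.000153). For all 4 genes the groups were apart. GLI2 differed by -0.21 (adjusted p = 0.251) and SUFU by -0.07 (adjusted p = 0.559), so that both the most abundant GLI factor per kilobase and its restraint stayed short of the test. WNK2 transcript itself did not pass the test between these groups (0.25, adjusted p = 0.33). This comparison therefore does not set low against abundant WNK2 transcript.

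Within the WNK2- line, sorbitol lowered PTCH1, SMO and GLI3, 3 of the 6 members, where 14.9% of all tested genes passed (8.25% higher and 6.64% lower). SMO fell by 0.86 on the log2 scale (SE 0.14, adjusted p = 8.13e-05) and PTCH1 fell by 0.50 (SE 0.14, adjusted p = 0.0142), and for both genes every WNK2- Sor library was below every WNK2- Ctr library. The libraries of GLI2, GLI3 and SUFU were apart in the same direction, but how often this held over all tested genes was not counted. GLI2 (-0.33, adjusted p = 0.132) and SUFU (-0.20, adjusted p = 0.172) did not pass the test. GLI1, already scarce in this line, differed by -0.26 with an interval from -0.89 to 0.37. GLI3 fell by 0.32 (adjusted p = 0.0413), a call that was lost when any of the 8 libraries compared was left out (adjusted p = 0.0518 to 0.114). Without WT Ctr replicate 2, which is in neither group but adds to the shared spread, GLI2 passed as well (-0.33, adjusted p = 0.0435).

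In isotonic media, cells labelled WNK2 trans had more PTCH1 than WT Ctr, 33.6 ± 4.35 against 20.6 ± 5.46 CPM (SD, n = 4 in each), with the groups just apart. Its log2 difference was 0.71 ± 0.14 (SE, adjusted p = 0.000875), and it was 1 of 6 members called, beside 12.5% of all tested genes (5.57% higher and 6.98% lower). SMO differed by 0.36 (adjusted p = 0.0862), GLI2 by 0.33 (0.134), GLI3 by 0.26 (0.109), GLI1 by 0.28 (0.511) and SUFU by -0.08 (0.661). The SMO libraries of these groups were apart as well. With these 8 libraries alone in the fit the adjusted p of PTCH1 was 0.0556. Leaving out WT Ctr replicate 3 or 4 or WNK2 trans Ctr replicate 3 raised the number of members called to between 2 and 3, with SMO, GLI2 or GLI3 at differences of 0.33 to 0.50.

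Under sorbitol the cells labelled WNK2 trans had less of 4 members than WT Sor, beside 31.7% of all tested genes (16.1% higher and 15.5% lower). GLI1 was 2.88-fold lower (log2 difference -1.53 ± 0.27 SE, adjusted p = 0.000119), SMO 2.41-fold lower (-1.27 ± 0.14 SE, adjusted p = 1.8e-07) and PTCH1 1.81-fold lower (-0.86 ± 0.14 SE, adjusted p = 4.39e-05). For these 3 genes, and for GLI2 and GLI3, the groups were apart. GLI2 was 1.31-fold lower (-0.39 ± 0.14 SE, adjusted p = 0.043), but that call was lost when 1 of 10 libraries was left out, among them all 4 of WT Sor and replicates 2 and 3 of WNK2 trans Sor, with adjusted p up to 0.125. GLI3 differed by -0.25 (adjusted p = 0.0687), and passed without WT Ctr replicate 1 (adjusted p = 0.0476) or 3 (0.045) or WNK2 trans Ctr replicate 3 (0.0497). SUFU differed by -0.20 (adjusted p = 0.122), and passed without WNK2 trans Sor replicate 4 (-0.27, adjusted p = 0.0483).

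Sorbitol within the cells labelled WNK2 trans moved the most members of these comparisons, with 5 of the 6 lower and 48.0% of all tested genes past the test (24.3% higher and 23.7% lower). GLI1 fell by 1.81 on the log2 scale (SE 0.27, adjusted p = 5.39e-06), SMO fell by 1.73 (SE 0.14, adjusted p = 3.28e-10) and PTCH1 fell by 1.09 (SE 0.14, adjusted p = 6.35e-07). GLI2 fell by 0.50 (adjusted p = 0.00574) and GLI3 fell by 0.30 (adjusted p = 0.02), while SUFU differed by -0.17 (adjusted p = 0.156). The groups were apart for GLI1, SMO and PTCH1 and overlapped for the rest. The median log2 difference of the 11 tested chondrocyte markers in this comparison was -2.08, and the part of that shift was not tested. The call of GLI3 was lost without WNK2 trans Ctr replicate 1 (adjusted p = 0.0603) or 2 (0.0716) or WNK2 trans Sor replicate 1 (0.061). The comparisons above share groups with each other, and in each of them the median log2 difference of all tested genes was within 0.04 of 0. The share of all tested genes whose groups were apart was not counted.

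**Figure D2:**
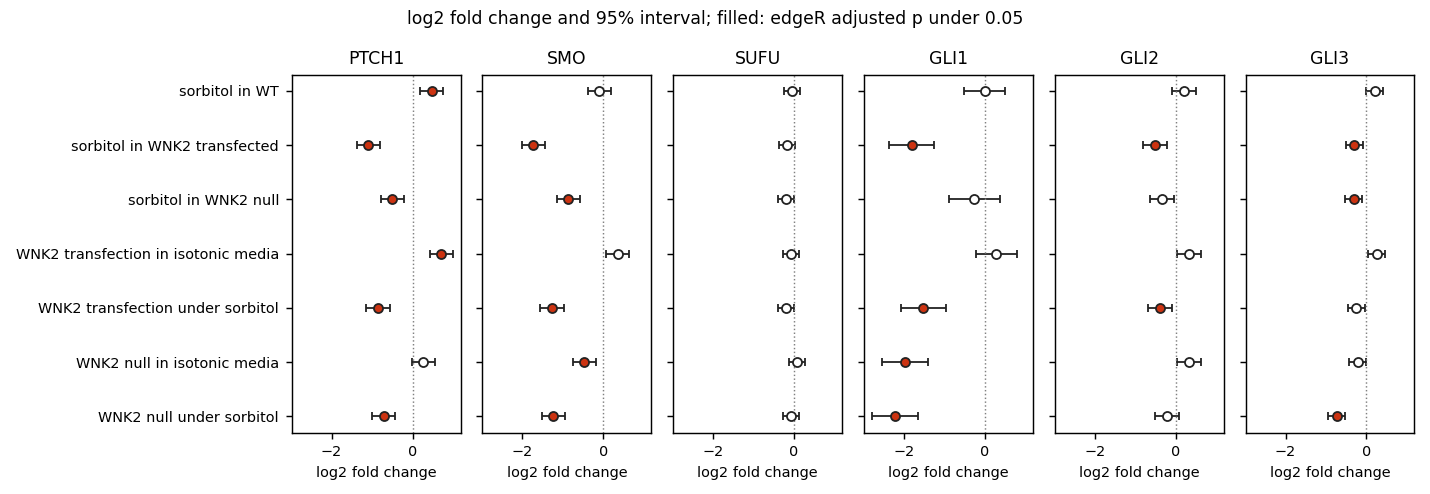
Log2 fold change (points) with 95% interval (bars) of the 6 tested members (panels) in the 7 comparisons of group pairs described first; filled points have an adjusted p under 0.05 and open points do not. SMO and GLI1 lie left of 0 in the comparisons of WNK2- with WT and of WNK2 trans Sor with WT Sor, and PTCH1 is to the right under sorbitol in WT and to the left under sorbitol in the other cells.

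The estimated response of PTCH1 to sorbitol was a rise in WT cells and a fall in the other cells. The call of the rise was lost without WT Ctr replicate 2 (adjusted p = 0.0662) and with only the compared groups in the fit (0.0736). The difference between the PTCH1 response in WNK2- and in WT cells was -0.98 ± 0.20 (SE, log2, adjusted p = 0.00235), and that between cells labelled WNK2 trans and WT cells was -1.57 ± 0.20 (SE, adjusted p = 8.8e-07). SMO, whose difference in WT cells did not pass the test, had an interaction of -0.77 ± 0.20 with genotype (SE, adjusted p = 0.015) and of -1.63 ± 0.20 with transfection (SE, adjusted p = 4.3e-07). The repressor GLI3 had interactions of -0.52 (adjusted p = 0.027) and -0.51 (adjusted p = 0.00914). With genotype, 3 of 6 members were called, all with a negative difference, beside 8.65% of all tested genes (3.99% positive and 4.66% negative). With transfection 5 of 6 were, again all negative, beside 35.5% (18.1% positive and 17.4% negative). GLI1 differed with transfection (-1.81 ± 0.37 SE, adjusted p = 0.00044), while with genotype its value of -0.26 had an interval from -1.07 to 0.56. GLI2 differed with transfection (-0.72, adjusted p = 0.00766), and its value with genotype, -0.55 (adjusted p = 0.0944), passed without WT Ctr replicate 4 (-0.71, adjusted p = 0.0158). The genotype interaction of GLI3 was lost without WT Ctr replicate 2, WT Sor replicate 1, WNK2- Ctr replicate 2 or 3 or WNK2- Sor replicate 3 (adjusted p = 0.0504 to 0.0593). Both interactions rest on the sorbitol response of WT cells, in which WNK2 transcript itself fell by 3.06 on the log2 scale (adjusted p = 1.52e-10).

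Because the WNK2 counts went against a label, the members were also compared across other group pairs. WNK2- Ctr against WNK2 trans Ctr gave lower GLI1 (-2.25 ± 0.27 SE, adjusted p = 2.26e-07), SMO (-0.83 ± 0.14 SE, adjusted p = 1.92e-05), GLI3 (-0.47, adjusted p = 0.000568) and PTCH1 (-0.45, adjusted p = 0.00929), 4 of 6 members beside 47.7% of all tested genes (23.7% lower). GLI1 and SMO were thus lower in the WNK2- line against either isotonic group of WT genotype. The groups labelled WT Sor and WNK2 trans Ctr, both with little WNK2 transcript, differed in 1 member beside 15.1% of all tested genes (8.74% higher and 6.31% lower in WT Sor): SMO was lower in WT Sor by 0.46 on the log2 scale (adjusted p = 0.023), a call lost without WT Sor replicate 1, 3 or 4 or WNK2 trans Ctr replicate 2 or 4 (adjusted p = 0.0521 to 0.11). WNK2 trans Sor and WT Ctr, both with abundant WNK2 transcript, differed in 4 members beside 39.2% of all tested genes (19.8% higher and 19.5% lower in WNK2 trans Sor). SMO was 2.58-fold lower (-1.37 ± 0.14 SE, adjusted p = 4.41e-08) and GLI1 2.89-fold lower (-1.53 ± 0.27 SE, adjusted p = 8.82e-05) in WNK2 trans Sor. PTCH1 (-0.38, adjusted p = 0.0349) and SUFU (-0.24, adjusted p = 0.0472) were lower there too. The PTCH1 call was lost without WT Ctr replicate 1 or 4 or WNK2 trans Sor replicate 2 or 4 (adjusted p = 0.0536 to 0.207), and was kept in 3 of 6 alternative settings. The SUFU call was lost when 1 of 19 libraries was left out, with adjusted p up to 0.193. It was kept in 0 of the 6 settings, with adjusted p from 0.0544 (DESeq2) to 0.272 (only the compared groups). Without WT Ctr replicate 2, GLI2 passed (-0.33, adjusted p = 0.0383).

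The make-up of the GLI transcripts differed between the lines. Of the summed GLI1, GLI2 and GLI3 levels per kilobase, GLI1 made up 8.20 ± 2.71% in WT Ctr, 6.80 ± 0.729% in WT Sor, 7.86 ± 1.83% in WNK2 trans Ctr, 3.13 ± 1.33% in WNK2 trans Sor, 1.87 ± 0.404% in WNK2- Ctr and 1.93 ± 0.659% in WNK2- Sor (SD, n = 4 in each). GLI2 took 58.8 to 60.5% in the 4 groups of WT genotype and 71.4 and 71.1% in the WNK2- groups, and GLI3 took 31.6 to 36.3% and 26.7 and 27.0%. The WNK2- line thus had a larger GLI2 share and smaller GLI1 and GLI3 shares than the WT genotype, and WNK2 trans Sor had the lower GLI1 share without the larger GLI2 share. These shares restate the member levels and carry no test.

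**Figure D3:**
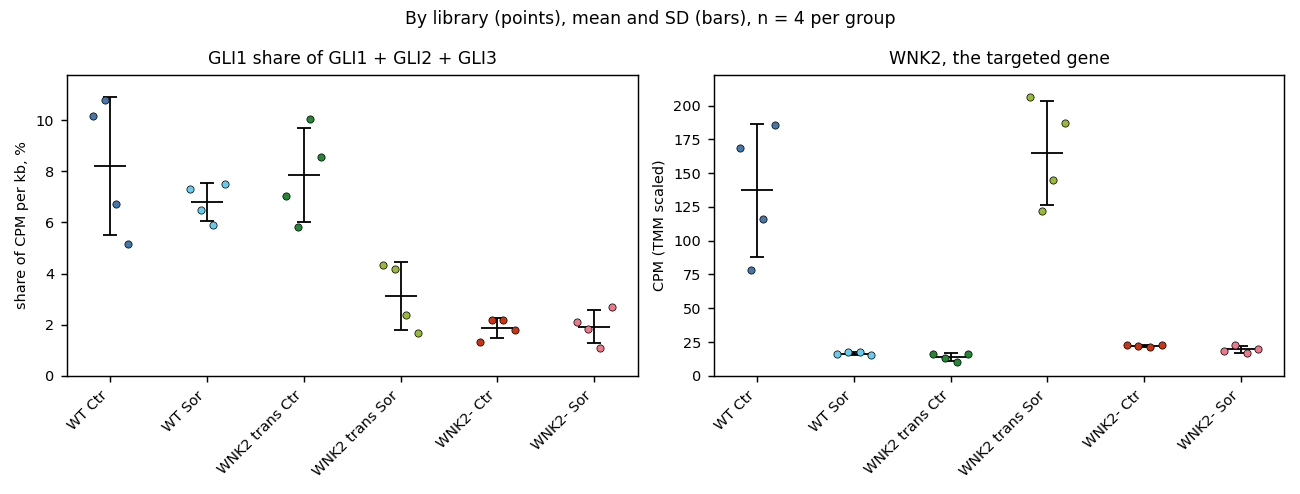
Left, the share of GLI1 in the summed GLI1, GLI2 and GLI3 level per kilobase (percent) by group; right, WNK2 CPM by group; points are libraries, bars the mean and SD (n = 4). The mean GLI1 share is 3.13% in WNK2 trans Sor and 1.87 and 1.93% in the WNK2- groups, and WNK2 is at 78.5 CPM or more in WT Ctr and WNK2 trans Sor and at 22.8 CPM or less elsewhere.

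GAS1, one of the co-receptors that present ligand to PTCH1, differed by more than any member in each of the 7 comparisons described first. Of 16 genes for ligands, their release, receptors and co-receptors, 13 were tested: 4 were higher and 0 lower under sorbitol in WT cells, 1 higher and 4 lower in the WNK2- line in isotonic media, and 1 higher and 5 lower in that line under sorbitol. The share of the list called was 30.8%, 38.5% and 46.2%, beside 24.1%, 42.1% and 46.3% of all tested genes. This membrane-anchored protein was at 29.5, 18.1, 15.96 and 23.6 CPM in WT Ctr, 39.8, 40.3, 32.4 and 39.03 CPM in WT Sor, 2.42, 2.73, 2.86 and 2.59 CPM in WNK2- Ctr and 1.49, 1.32, 0.999 and 1.17 CPM in WNK2- Sor. Every library of the WNK2- line was below every WT library, by 8.18-fold in isotonic media (log2 difference -3.03 ± 0.22 SE, adjusted p = 4.07e-11) and by 30.0-fold under sorbitol (-4.90 ± 0.24 SE, adjusted p = 1.19e-14). In the cells labelled WNK2 trans GAS1 was at 56.7, 49.7, 52.5 and 63.4 CPM in control media and at 11.3, 4.32, 7.02 and 6.3996 CPM in sorbitol, a fall by 2.95 on the log2 scale (SE 0.20, adjusted p = 1.35e-11).

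BOC, another co-receptor, had the same order of groups as GAS1, with 10.9 ± 0.581 CPM in WT Ctr, 15.6 ± 0.897 in WT Sor, 28.9 ± 1.16 in WNK2 trans Ctr, 3.95 ± 1.06 in WNK2 trans Sor, 2.70 ± 0.217 in WNK2- Ctr and 1.79 ± 0.402 in WNK2- Sor (SD, n = 4 in each). It rose under sorbitol in WT cells (0.51 ± 0.14 SE, adjusted p = 0.0104) and fell by 2.88 under sorbitol in cells labelled WNK2 trans (SE 0.15, adjusted p = 1e-13). CDON, the third co-receptor, was lower in the WNK2- line under sorbitol by 1.06 on the log2 scale (SE 0.17, adjusted p = 1.67e-05), and its means of 31.8 and 30.0 CPM in WNK2 trans Ctr and WNK2 trans Sor were close.

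**Figure D4:**
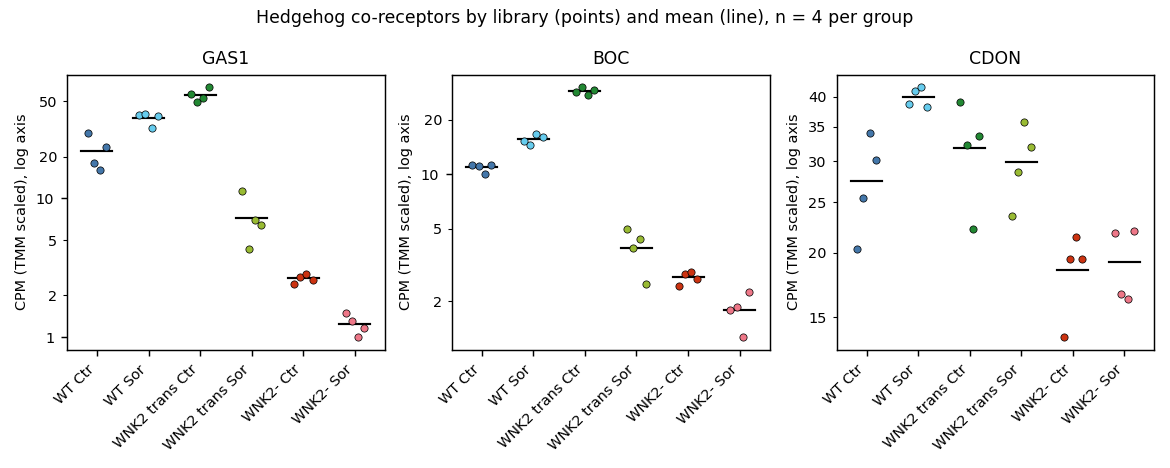
CPM on a log axis of GAS1, BOC and CDON by group; points are libraries and the line is the mean (n = 4). GAS1 and BOC are highest in WNK2 trans Ctr and lowest in the WNK2- groups, with no overlap between those groups.

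SHH, the sonic hedgehog ligand, was at 2.03, 1.56, 1.35 and 1.502 CPM in WNK2 trans Ctr and at 7.47, 5.30, 8.80 and 5.00 CPM in WNK2 trans Sor, a rise by 2.04 on the log2 scale (SE 0.28, adjusted p = 1.39e-06). HHAT, the acyltransferase that adds palmitate to hedgehog ligands, rose from 10.9 ± 1.31 to 31.9 ± 4.42 CPM (SD, n = 4 in each) between the same groups (1.54 ± 0.12 SE, adjusted p = 7.44e-11). It was also higher in the WNK2- line than in WT cells, by 0.64 in isotonic media (adjusted p = 8.87e-05) and by 0.83 under sorbitol (adjusted p = 1.42e-06). IHH, the Indian hedgehog ligand, had a mean below 1 CPM in every group and differed by -0.14 under sorbitol in cells labelled WNK2 trans (adjusted p = 0.891). In the cells labelled WNK2 trans, 4 of the 13 tested genes of this list rose and 4 fell under sorbitol, beside 24.3% and 23.7% of all tested genes.

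Intracellular regulators of the pathway moved in both directions. Of 26 listed genes 25 were tested: 6 were higher and 6 lower in the WNK2- line in isotonic media (median log2 difference 0.05), 4 higher and 8 lower under sorbitol (median -0.11), and 5 rose and 8 fell under sorbitol in cells labelled WNK2 trans (median -0.21). These calls took in 48%, 48% and 52% of the tested list, near the 42.1%, 46.3% and 48.0% of all tested genes. GPR161, a ciliary receptor that keeps the pathway off through protein kinase A, was lower in the WNK2- line by 0.64 in isotonic media (SE 0.08, adjusted p = 7.03e-07) and by 0.97 under sorbitol (SE 0.08, adjusted p = 3.82e-10). ARRB2, an arrestin that takes part in moving SMO, was lower by 1.07 (SE 0.15, adjusted p = 4.04e-06) and 1.13 (SE 0.15, adjusted p = 1.31e-06) in the same comparisons. SMURF2, a ubiquitin ligase, was higher in the WNK2- line by 0.92 (SE 0.09, adjusted p = 2.1e-08) and 1.10 (SE 0.09, adjusted p = 5.69e-10) and rose by 1.32 (SE 0.10, adjusted p = 2.89e-11) under sorbitol in cells labelled WNK2 trans. EVC, a ciliary partner of SMO, was higher in the WNK2- line by 1.34 (SE 0.20, adjusted p = 6.01e-06) in isotonic media, where SMO itself was lower. Among WT cells sorbitol gave 5 higher and 3 lower, beside 24.1% of all tested genes called, with STK36, a kinase related to fused, up by 0.43 (SE 0.09, adjusted p = 0.00155).

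Genes reported as GLI targets in other tissues did not move as 1 block. Of 26 listed genes 20 were tested, with 3 higher and 1 lower under sorbitol in WT cells, 7 higher and 5 lower in the WNK2- line in isotonic media, 6 higher and 7 lower there under sorbitol, 4 higher and 10 lower in WNK2 trans Sor against WT Sor, and 5 higher and 10 lower under sorbitol in cells labelled WNK2 trans. In the same order 20%, 60%, 65%, 70% and 75% of the tested list were called, beside 24.1%, 42.1%, 46.3%, 31.7% and 48.0% of all tested genes. CCND1, a cyclin of the G1 phase, was at 110 ± 21.8 CPM in WT Ctr, 92.9 ± 3.61 in WT Sor, 50.7 ± 8.87 in WNK2 trans Ctr, 280 ± 35.9 in WNK2 trans Sor, 324 ± 14.3 in WNK2- Ctr and 392 ± 14.7 in WNK2- Sor (SD, n = 4 in each). CCND1 was therefore high in the groups in which GLI1 was low. It was higher in the WNK2- line by 1.56 (SE 0.12, adjusted p = 2.23e-10) in isotonic media and rose by 2.47 (SE 0.13, adjusted p = 5.81e-14) under sorbitol in cells labelled WNK2 trans.

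IGFBP3, which binds insulin-like growth factors, was at 189, 220, 247 and 195 CPM in WNK2 trans Ctr, while the means of the other groups were 12.2 to 41.4 CPM. It fell by 3.45 (SE 0.12, adjusted p = 2.48e-17) under sorbitol in those cells. SNAI1, a repressor of epithelial genes, fell by 2.74 (SE 0.19, adjusted p = 1.37e-11) between the same groups and was lower in the WNK2- line under sorbitol by 1.26 (SE 0.18, adjusted p = 2.94e-06). JAG2, a Notch ligand, was lower in the WNK2- line by 0.67 (SE 0.17, adjusted p = 0.00303) and 1.12 (SE 0.18, adjusted p = 1.11e-05) and fell by 1.46 (SE 0.18, adjusted p = 2.45e-07) with sorbitol in cells labelled WNK2 trans. BMP4, a growth factor of skeletal tissue, rose by 0.75 (SE 0.11, adjusted p = 3.78e-05) with sorbitol in WT cells and fell by 0.97 (SE 0.11, adjusted p = 4.74e-07) with sorbitol in the WNK2- line, and the difference between these responses was -1.72 ± 0.16 (SE, adjusted p = 8.35e-08).

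Genes of the primary cilium, through which SMO signals, were more often lower than higher in the WNK2- line. Of 40 matched genes 37 were tested: 3 were higher and 16 lower in isotonic media (median log2 difference -0.20), where 21.5% of all tested genes were lower, and 5 higher and 14 lower under sorbitol (median -0.20), where 22.7% were lower. The largest falls in isotonic media were those of TMEM67, a transition zone protein (-1.19 ± 0.13 SE, adjusted p = 4.94e-08), and of the intraflagellar transport subunits IFT20 (-0.99 ± 0.14 SE, adjusted p = 2.74e-06) and IFT52 (-0.66 ± 0.09 SE, adjusted p = 3.75e-06). INPP5E, a ciliary phosphatase, was higher by 0.64 (SE 0.18, adjusted p = 0.00616). With sorbitol 2 cilium genes rose and 13 fell in cells labelled WNK2 trans, led by ARL3, a small GTPase (-0.92 ± 0.14 SE, adjusted p = 5.36e-06), while in WT cells 0 rose and 4 fell. The share of this list called was 40.5% and 10.8%, beside 48.0% and 24.1% of all tested genes.

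In the list for the growth plate loop of IHH and parathyroid hormone-related protein, 9 of 15 genes were tested. In the WNK2- line 2 were higher and 4 lower in isotonic media and 2 higher and 5 lower under sorbitol (66.7% and 77.8% of the list), beside 42.1% and 46.3% of all tested genes called. The largest falls were those of the collagenase MMP13 in isotonic media (-2.15 ± 0.17 SE, adjusted p = 2.09e-10) and of RUNX2, a factor of hypertrophy, under sorbitol (-1.73 ± 0.12 SE, adjusted p = 5.88e-12). The genes that were higher were PTHLH, which encodes parathyroid hormone-related protein, by 1.75 (SE 0.50, adjusted p = 0.00606) and 1.51 (SE 0.45, adjusted p = 0.00772), and ALPL, the alkaline phosphatase of mineralising cartilage. ALPL was scarce, at 0.789 to 1.63 CPM in WNK2- Sor and 0 to 0.130 CPM in WT Sor (adjusted p = 7.22e-05), while its call in isotonic media (adjusted p = 0.0482) held in 7 of the 24 fits that each left out 1 library. FGFR3, a receptor that restrains growth plate proliferation, fell by 2.48 (SE 0.20, adjusted p = 2.65e-10) with sorbitol in cells labelled WNK2 trans, in which VEGFA, an angiogenic factor, rose by 1.38 (SE 0.10, adjusted p = 3.44e-11). MMP13 (0.91, adjusted p = 5.03e-05) and RUNX2 (0.71, adjusted p = 1.21e-05), which were lower in the WNK2- line, rose there as well. In that comparison 4 of the 9 tested genes rose and 3 fell, beside 48.0% of all tested genes called. With sorbitol in WT cells 1 gene of the list rose and 2 fell, beside 24.1% of all tested genes called.

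Over the 24 libraries the members were not all alike. Pearson's r of log2 CPM was 0.82 for PTCH1 with SMO, 0.81 for SMO with GLI1 and 0.80 for PTCH1 with GLI2, against 0.17 for GLI1 with GLI2 and 0.05 for GLI1 with SUFU. The genes most like each member among 9647 compared were KIRREL1, B4GALNT1 and BRD3 for PTCH1 (r = 0.96, 0.95 and 0.94), ALX4 and CTDSP2 for SMO (0.99 and 0.96), IRX3, SHOX2 and CACNB3 for GLI1 (0.95, 0.95 and 0.94) and PIEZO2, POMK and DENND5B for GLI3 (0.96, 0.95 and 0.95). Those of GLI2 were CHD2, CREBBP and ADGRL1 (r = 0.91, 0.89 and 0.89), and those of SUFU were AGPAT3, SAPCD2 and INTS1 (0.86, 0.83 and 0.82). The points share the 6 groups and the library scaling, so these values describe the group pattern and carry no p. The nearer end of PTCH1 lies 2.12 Mb from the end of WNK2 on chromosome 9, and 8 other genes within 1 Mb of PTCH1 were tested. In the WNK2- line in isotonic media none of these 8 passed the test and their median log2 difference was 0.06, and under sorbitol 1 was higher and 2 lower with a median of 0.25, where PTCH1 differed by -0.71. Of 40 tested neighbours of GLI1, 3 were higher and 9 lower in isotonic media, and 5 higher and 17 lower under sorbitol. Of 27 near SMO these were 6 and 5, then 11 and 5, and of 9 near GLI2, 5 and 1, then 5 and 0. Of 35 near SUFU they were 9 and 9, then 10 and 7, and of 5 near GLI3, 0 and 1, then 1 and 0. Of all tested genes, 20.7% were higher and 21.5% lower, then 23.7% and 22.7%. The neighbours of GLI1 were more often lower outside the WNK2- line too. In WNK2 trans Sor against WT Sor 3 were higher and 19 lower, beside 16.1% and 15.5% of all tested genes. With sorbitol in cells labelled WNK2 trans 6 were higher and 16 lower, beside 24.3% and 23.7%. The part of genomic position was not tested.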

How the data were processed

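Poly(A) mRNA of 24 libraries was sequenced. Per the submitters' processing notes the authors aligned reads to GRCh38 with HISAT2 2.2.1 and deposited raw read counts per gene from HTSeq (2.0.2 in the notes, 0.11.3 in the study's methods); the annotation and strand setting are not given in the sources used here. The counts as deposited were tested in edgeR 4.0.16 (R 4.3.3) by the quasi-likelihood method, with TMM scaling, a low-count filter (minimum count 10, minimum total 15), 1 mean for each of the 6 groups and Benjamini-Hochberg adjustment over the 16600 tested genes, at a threshold of 0.05. Positions and exon lengths were those of GENCODE 29; promoters came from RefSeq. The tests were checked on simulated data with fewer changed genes than were called in any comparison here. That check does not cover changes as broad as these. Differences have 95% intervals, and log2 CPM used a prior count of 2.

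Named genes were all members, WNK2, listed pathway genes described by their role, at most 3 rises and 3 falls of the cilium and growth plate lists, and the 3 genes most like each member; genes that these rules name but the text leaves out are not reported here. Members and lists were chosen with earlier results of these data known. Alternatives were DESeq2 1.42.0, other scaling, other filters, a replicate block, only the compared groups, and each library left out in turn.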

Additional observations from a re-analysis of the deposited data

Results flagged for a closer look

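In the libraries labelled WNK2 trans Sor the lowest PTCH1 value, that of replicate 2 (13.1 CPM, with the others at 16.4 to 16.9 CPM), stood apart from the other 3 by a gap of 0.878 of the group's range, which exceeds Dixon's 95% limit for 4 libraries. Chance alone exceeds that limit in about 5% of groups, and the cause was not tested.

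The response to sorbitol differed between the WNK2- line and WT cells, by a test of the difference itself, for PTCH1 (log2 difference between responses -0.98), SMO (-0.77) and GLI3 (-0.52). Between cells labelled WNK2 trans and WT cells it differed for PTCH1 (-1.57), SMO (-1.63), GLI1 (-1.81), GLI2 (-0.72) and GLI3 (-0.51). Both sets of values share the WT libraries, and the transfection values rest on groups whose WNK2 transcript went against the label. The genotype values are limited too, since WNK2 transcript was 8.33-fold lower in WT Sor than in WT Ctr (adjusted p = 1.52e-10).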

How the results depend on the processing

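Of 37 called member differences, 28 kept their call under every alternative that gave a value (6 settings and 24 libraries left out in turn), among them every SMO and GLI1 call in the comparisons of WNK2- with WT and of WNK2 trans Sor with WT Sor. None changed sign, 70 of 1103 alternatives of called values lost the call, and 24 of 1045 alternatives of values not called gained it. With only the compared groups in the fit, the members called went from 1 to 0 for sorbitol in WT, from 1 to 0 for WNK2 transfection in isotonic media, from 3 to 5 for sorbitol in WNK2 null and from 4 to 2 for WNK2 trans Sor against WT Ctr; all tested genes called went from 2082 to 717, from 2473 to 4823 and from 6509 to 3236 in the last 3 of these. GLI2 in WNK2 null under sorbitol was then called at -0.21 (adjusted p = 0.0275). For WNK2 trans Sor against WT Ctr, 2 members were called with no filter on low counts, and 1 of the 5 tested with at least 10 counts in every library, a filter that removes GLI1. Left-out libraries moved the members called between 0 and 2 for sorbitol in WT, 2 and 4 for WNK2 null in isotonic media, 4 and 4 under sorbitol, 1 and 3 for transfection in isotonic media, 3 and 5 under sorbitol, 2 and 4 for sorbitol in WNK2 null, 4 and 5 in WNK2 transfected, 0 and 1 for WT Sor against WNK2 trans Ctr, 4 and 4 for WNK2- Ctr against WNK2 trans Ctr, 2 and 5 for WNK2 trans Sor against WT Ctr, 2 and 4 for the genotype and 5 and 5 for the transfection interaction. All tested genes called for the genotype interaction, 1436, ranged from 866 without WNK2- Sor replicate 3 to 1945 and were 950 without WNK2- Ctr replicate 2. Same-numbered libraries did not deviate together as a whole (60 pairs, correlations from -0.287 to 0.458, median 0.0131, with 10 pairs over 0.1). This cannot exclude a pairing between some groups, such as WT Ctr and WNK2 trans Sor (0.056 to 0.458). With a replicate block, GLI3 under sorbitol in WNK2 null (-0.31, adjusted p = 0.0624) and SUFU in WNK2 trans Sor against WT Ctr (-0.24, adjusted p = 0.0579) lost their calls, and no other member call changed. The causes were not tested beyond the fewer libraries or genes in each fit. GLI1, with 8 counts in its lowest library, is the member most limited by depth.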
